A study of Mus musculus with 12 samples.

Results

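Liver tumors that carried no Ctnnb1 mutation were compared with the non-tumor livers of the same mice by RNA sequencing. The tumors were T-HCC941, a hepatocellular carcinoma (HCC) with an Egfr mutation, T-HCA992, an adenoma (HCA) without a known driver mutation, TCi-HCC981, an HCC with an Hras mutation, and TCi-HCA984, an adenoma with an Ep300 change. With their 4 own livers they gave 8 of the 12 libraries of the series, and each mouse gave 1 tumor library and 1 liver library. The tumors were chosen by the absence of a Ctnnb1 mutation in the study's exome sequencing and not by any expression value.

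The mice are named here by the titles of their liver libraries, p_941, NT_992, L981_CI, and L984_CI, in the order of the tumors above. Mice p_941 and NT_992 were p21+/Tert and mice L981_CI and L984_CI were p21+/TertCi, all in old age, on a C57BL/6 background and fed a standard diet. Tert encodes the reverse transcriptase of telomerase, and TertCi encodes a catalytically inactive form. In these mice 1 allele of Cdkn1a, the gene of the cell cycle inhibitor p21, carries the Tert or TertCi coding sequence, which is thus driven by the p21 promoter wherever that promoter is active, and the endogenous Tert gene is intact. The non-tumor livers carry the same allele and the same old age as the tumors, so the comparison is of tumor with tumor-bearing liver, and no liver without the allele was part of it. The other 4 libraries are 2 p21+/Tert tumors with a Ctnnb1 mutation, T-HCC662 and T-HCC663, and the livers of those mice. They are used where the change in a tumor without the mutation is set against the change in a tumor with it.

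Hepatocytes divide their work along the liver lobule. Cells around the portal vein make urea and glucose and break down many amino acids, and cells around the central vein make glutamine and hold much of the cytochrome P450 system. Wnt signals from the central vein act through β-catenin, the product of Ctnnb1, to keep the pericentral program on and the periportal program off. Hal, Gldc, and Col4a3 were taken as markers of the tumors without a Ctnnb1 mutation. Hal and Gldc encode the first enzyme of histidine breakdown and an enzyme of glycine cleavage, both periportal, and Col4a3 encodes a collagen chain of specialized basement membranes.

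The livers had 14571716 to 23932529 reads assigned to genes and the tumors 17492956 to 26170661, and the 10 genes with most reads held 12.4% to 17.1% of a liver library and 19.6% to 21.7% of a tumor library. Levels are given as CPM, counts per 1000000 reads assigned to genes after TMM scaling of library size, and values follow the order p_941, NT_992, L981_CI, and L984_CI. Log2 fold changes are of tumor over own liver and stand with ± SE, medians given per mouse are of log2 ratios of CPM + 1, and adjusted p-values are those of the edgeR quasi-likelihood F test with mouse as a block, Benjamini-Hochberg adjusted over all genes tested. A gene is said to have risen or fallen where that adjusted p was under 0.05. The hepatocyte markers of the labelled tissue were present in every library. Their summed level was 51302 to 63913 CPM in the livers and 109535 to 132324 CPM in the tumors, and none of the 8 markers was at 0. Each mouse is a separate animal, but the sequencing run of each library was not given, and whether a run differed between tumors and livers cannot be told apart from the tissue.

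Of 14004 genes tested, 2950 (21.1%) passed the test, 1588 higher (11.3%) and 1362 lower (9.73%) in the tumors. Among them 1576 of the higher and 1354 of the lower genes moved the same way in all 4 mice, and 1084 and 861 had no overlap between the 4 tumors and the 4 livers. Over all genes tested, all 4 tumors lay above all 4 livers in 9.69% and below them in 9.39%. A change of more than 8-fold was reached by 294 of the higher and 90 of the lower genes, so the larger changes were mostly gains. Without the mouse as a block, that is without the pairing of tumor and liver, 1474 genes passed (882 higher and 592 lower). The count was 1038 without mouse p_941, 1250 without mouse NT_992, and 1775 without mouse L981_CI, and the median log2 fold change over all genes was 0.00.

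Of the 12 rising genes of smallest p among those higher in all 4 mice, 11 are described here, and many were transcripts that were near absent from liver. Akr1c18, which inactivates progesterone, was at 0, 0.106, 0, and 0 CPM in the livers and 28.5, 79.7, 93.6, and 76.1 CPM in the tumors (adjusted p = 0.000316). Csn3, the milk protein kappa-casein, was at 0, 0, 0, and 0.0495 CPM in the livers and 4.13, 3.26, 77.7, and 49.0 CPM in the tumors (adjusted p = 0.000316). Both genes were thus read in every tumor and at most in a trace in liver, and no fold change is given because the livers held too few reads. The same holds for Bex1, at 0, 0, 0.0422, and 0 against 38.3, 8.66, 18.4, and 8.05 CPM, and for the transcript 2310034O05Rik, at 0.0771, 0, 0.0422, and 0.0495 against 35.1, 7.23, 26.8, and 9.25 CPM (adjusted p = 0.000396 and 0.000316). Pnpla5, a lipase of lipid droplets, was at 0, 0.372, 0, and 0 CPM in the livers and 53.6, 113, 6.06, and 2.36 CPM in the tumors (adjusted p = 0.000421), again with too few liver reads for a fold change. The transcripts 6030419C18Rik and 5730559C18Rik were likewise at traces of 0.0771, 0.213, 0.0422, and 0.0991 CPM and of 0, 0.213, 0.0844, and 0.0495 CPM in the livers, and reached 9.81, 21.2, 5.7, and 15.8 CPM and 22.7, 27.0, 23.2, and 13.7 CPM in the tumors. In all 7 of these genes every tumor was above every liver. The other 4 had more liver reads. Itih5, an inter-alpha-trypsin inhibitor heavy chain that binds hyaluronan, rose from 12.2, 9.09, 7.51, and 7.63 to 166, 171, 226, and 132 CPM (log2 fold change 4.27 ± 0.23, adjusted p = 0.000515). Tff3, a secreted trefoil peptide of mucous surfaces, rose from 0.54, 0.0532, 0.0844, and 0.347 to 186, 37.6, 48.4, and 32.6 CPM (log2 fold change 8.12 ± 0.41, adjusted p = 0.000421). Both were higher in every tumor than in any liver. Klrb1b, a lectin-like receptor known from natural killer cells, rose by 8.88 ± 0.48 on the log2 scale and reached 136, 113, 221, and 52.0 CPM in the tumors. Kif5c, a kinesin known from neurons, rose by 5.74 ± 0.28.

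The 12 falling genes of smallest p had smaller changes, between -1.46 for Angptl4 and -2.41 for Adh4 on the log2 scale. Adh4, an alcohol dehydrogenase that also acts on retinol, was at 97.8, 174, 121, and 233 CPM in the livers and 15.8, 29.1, 16.2, and 76.4 CPM in the tumors (log2 fold change -2.41 ± 0.24, adjusted p = 0.00274). Tmem86b, a lysoplasmalogenase, fell from 138, 126, 147, and 185 to 19.3, 32.7, 23.7, and 55.1 CPM (log2 fold change -2.27 ± 0.22, adjusted p = 0.00268), and Ldhd, a mitochondrial D-lactate dehydrogenase, from 339, 328, 216, and 436 to 66.9, 54.8, 41.6, and 149.9 CPM (log2 fold change -2.19 ± 0.23, adjusted p = 0.00304). In these 3 genes every tumor was below every liver, and TCi-HCA984 had the highest tumor level. The study's exome data list a deletion of Adh4 in T-HCC941, and its part in the fall was not tested. Id3, a repressor of helix-loop-helix factors, fell with a log2 fold change of -2.01 ± 0.21, and Cadm4, a cell adhesion molecule, with -1.93 ± 0.15, although the Cadm4 level of the tumor of mouse L984_CI (8.75, 2.94, 4.43, and 11.7 CPM in the 4 tumors) overlapped the livers (29.5, 10.8, 19.3, and 47.7 CPM). Angptl4, an inhibitor of lipoprotein lipase, differed widely among livers (70.9, 76.4, 20.8, and 312 CPM) and among tumors (26.6, 25.8, 7.68, and 110.5 CPM). A lower level in each tumor than in its own liver was a condition for all 12 genes. The remaining genes were Cpox of heme synthesis (-1.50), Phospho1 (-2.11), C4a (-1.89), Adh6-ps1 (-1.89), 1600002H07Rik (-2.24), and Magix (-1.66). C4a is nearly identical to C4b and Phospho1 shares transcribed sequence with Abi3, so their reads may be split or shared. 

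**Figure D1:**
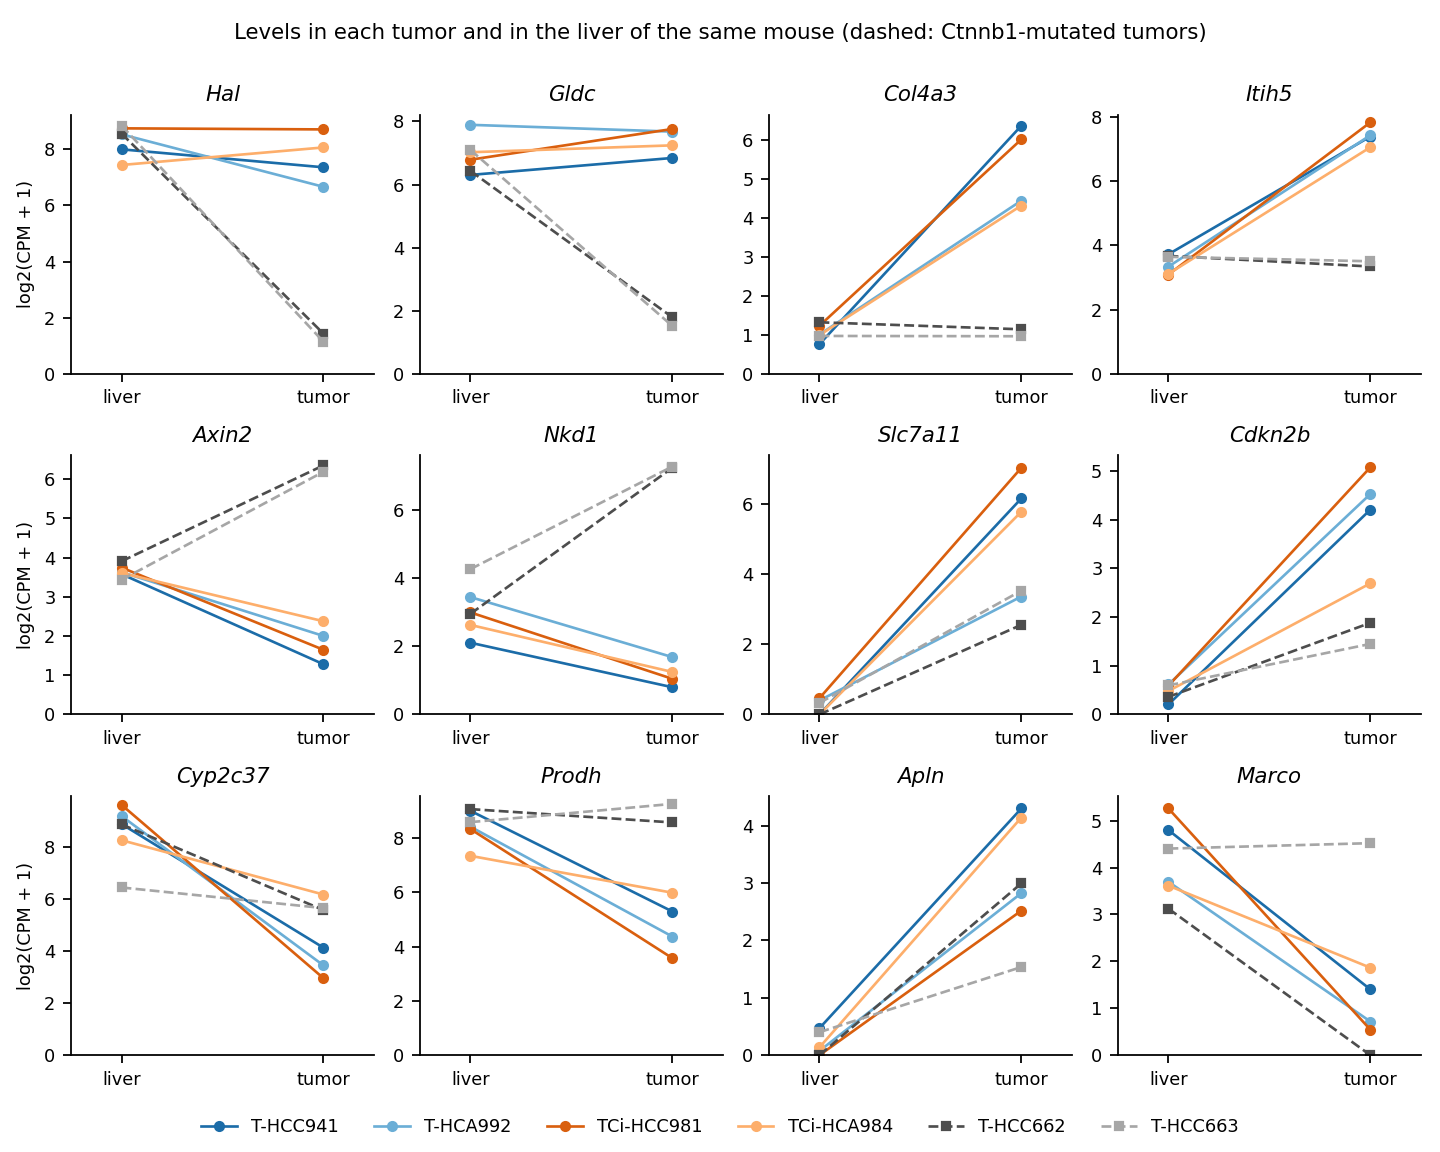
Levels of 12 genes in each mouse, as CPM on a log axis, with a line from non-tumor liver to the tumor of the same mouse. Solid lines are the 4 mice whose tumor had no Ctnnb1 mutation and dashed lines the 2 mice whose tumor had one. Col4a3, Itih5, Slc7a11, Cdkn2b, and Apln rise in all 4 solid lines, Axin2, Nkd1, Cyp2c37, Prodh, and Marco fall in all 4, and Hal and Gldc move both up and down in the solid lines, where the lowest tumor level of Hal is 100.4 CPM in T-HCA992, but drop to 1.21 to 2.46 CPM in the dashed ones.

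The 3 marker genes behaved in different ways. Hal was at 255, 369.6, 429, and 173 CPM in the livers and 163, 100.4, 418, and 267 CPM in the tumors (log2 fold change -0.45 ± 0.41, adjusted p = 0.465), lower in 3 mice and higher in mouse L984_CI, with overlapping groups. Without mouse NT_992 its log2 fold change was 0.02, so its direction rests on that mouse. Gldc was at 78.0, 237, 109, and 129 CPM in the livers and 114, 204, 216, and 150.4 CPM in the tumors (log2 fold change 0.40 ± 0.23, adjusted p = 0.248), higher in 3 mice and lower in mouse NT_992. Neither gene passed the test. All 4 tumor levels of Gldc lay within the range of the livers, while those of Hal in T-HCC941 and T-HCA992 lay below every liver. In the tumors with a Ctnnb1 mutation Hal was at 1.7 and 1.21 CPM, against 377 and 459 CPM in their livers, and Gldc at 2.46 and 1.86 against 85.3 and 136 CPM. The tumor effect differed between the classes by 7.70 ± 0.76, adjusted p = 0.00344 for Hal and by 6.02 ± 0.47, adjusted p = 0.00143 for Gldc, on the log2 scale.

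Col4a3 rose in all 4 tumors, from 0.694, 1.01, 1.35, and 0.991 to 81.7, 20.8, 63.9, and 18.97 CPM (log2 fold change 5.23 ± 0.45, adjusted p = 0.00177). In T-HCC662 and T-HCC663 it was at 1.21 and 0.95 CPM against 1.5 and 0.961 CPM in liver, and the classes differed by 5.38 ± 0.74, adjusted p = 0.0136. Col4a4, a partner chain that was named after its values were seen, is encoded head to head with Col4a3 and rose with it, from 0, 0.532, 0.506, and 0.0991 to 11.8, 5.62, 16.6, and 3.91 CPM (log2 fold change 4.98 ± 0.67, adjusted p = 0.00632). The 2 genes start 71 bases apart on opposite strands of chromosome 1, and the sequence between them is shown because a single short stretch lies before both. The window is RefSeq sequence of build GRCm38.p6, chr1:82586800-82587099, plus strand, and capitals mark the bases between the annotated start of Col4a4 at 82586849 on the minus strand and that of Col4a3 at 82586921 on the plus strand.
Col4a3 and Col4a4: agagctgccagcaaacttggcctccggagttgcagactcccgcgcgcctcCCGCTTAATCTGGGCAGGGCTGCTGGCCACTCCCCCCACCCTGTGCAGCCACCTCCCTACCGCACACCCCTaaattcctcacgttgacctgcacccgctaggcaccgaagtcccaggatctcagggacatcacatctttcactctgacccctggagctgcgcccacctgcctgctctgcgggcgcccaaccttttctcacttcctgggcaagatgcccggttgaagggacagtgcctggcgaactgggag

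Col4a3 and Col4a4 were part of a wider rise of basement membrane and matrix genes. Of 41 such genes tested, 22 rose and 1 fell, with a median log2 fold change of 1.67 against 0.00 over all genes. The medians per mouse were 1.27, 1.21, 0.86, and 1.40. Itga6, the integrin subunit that anchors cells to laminin, rose from 2.31, 2.82, 4.09, and 2.92 to 58.0, 70.5, 47.6, and 34.5 CPM (log2 fold change 4.09 ± 0.27, adjusted p = 0.000995). Col4a5, the third chain of the Col4a3 network, rose from 0.386, 0.638, 1.27, and 1.04 to 13.7, 24.8, 22.8, and 13.4 CPM (log2 fold change 4.49 ± 0.33, adjusted p = 0.00138). Col4a2, of the collagen IV network found in most vessels, rose from 4.24, 26.3, 12.5, and 16.5 to 75.5, 120.3, 79.7, and 150.0 CPM (log2 fold change 3.03 ± 0.33, adjusted p = 0.00352), and Thbs1, the matrix protein thrombospondin, from 2, 1.91, 3.29, and 2.08 to 14.2, 11.2, 26.3, and 7.99 CPM (log2 fold change 2.60 ± 0.25, adjusted p = 0.00252). All 4 of these genes were higher in every tumor than in any liver. The exception was Lama1, a laminin chain named after its values were seen, at 2.54, 5.05, 6.67, and 1.98 CPM in the livers and 0.477, 2.4, 2.44, and 0.92 CPM in the tumors (log2 fold change -1.44 ± 0.34, adjusted p = 0.0292). In the pairs with a Ctnnb1 mutation the list had a median of 0.14, with 4 genes higher and 2 lower of 41, where 3.93% of all genes were higher and 3.1% lower. Lama1 was no longer called without mouse p_941, NT_992, L981_CI, or L984_CI (adjusted p from 0.0532 to 0.0923).

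Pericentral and Wnt target genes fell. Of 25 tested, 21 fell and 1 rose, with a median of -2.21, and their summed level was 10119 to 16368 CPM in the livers and 1417 to 4031 CPM in the tumors. Axin2, a feedback inhibitor that reads Wnt activity in most tissues, was at 10.9, 11.4, 12.4, and 11.2 CPM in the livers and 1.43, 3.01, 2.14, and 4.2 CPM in the tumors (log2 fold change -2.16 ± 0.30, adjusted p = 0.00701). Nkd1, another feedback inhibitor, was at 3.32, 9.95, 7.01, and 5.2 CPM in the livers and 0.742, 2.22, 1.07, and 1.38 CPM in the tumors (log2 fold change -2.21 ± 0.29, adjusted p = 0.00553). Both were lower in every tumor than in any liver, while in T-HCC662 and T-HCC663 Axin2 stood at 80.6 and 71.9 CPM and Nkd1 at 152 and 156 CPM. Rnase4, a secreted ribonuclease, fell with a log2 fold change of -2.79 ± 0.36, Lect2, a secreted hepatokine, with -2.45 ± 0.33, and Fitm1, a lipid droplet protein, with -2.68 ± 0.38. Named after their values were seen, Glul, the glutamine synthetase of the cells next to the central vein, fell from 1860.4, 1286, 1211, and 1153 to 138, 152, 148, and 445 CPM (log2 fold change -2.81 ± 0.42, adjusted p = 0.00863), Oat, ornithine aminotransferase, from 2241, 1801, 1546, and 664 to 66.7, 43.3, 35.8, and 185 CPM (log2 fold change -4.54 ± 0.73, adjusted p = 0.0101), and Cyp2e1, the ethanol-oxidizing P450, from 5976, 4852, 5069, and 4433 to 228, 234, 75.0, and 1894 CPM (log2 fold change -4.21 ± 0.86, adjusted p = 0.0191). Lgr5, a receptor for the Wnt enhancers called R-spondins, fell with a log2 fold change of -2.85 ± 0.42. The single gene that rose, Gstm3, is a glutathione transferase that also stands among the Nrf2 targets (log2 fold change 1.76 ± 0.35, adjusted p = 0.0173). Tnfrsf19, Znrf3, and Tcf7 did not pass the test.

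The median change of the pericentral genes was smallest in the tumor of mouse L984_CI. The same was true of the amino acid, urea cycle, P450, and male-biased lists described below. The per-mouse medians of the pericentral list were -2.50, -2.11, -2.10, and -1.23, and TCi-HCA984 had the highest tumor level of Glul, Cyp2e1, Oat, Lgr5, Lect2, and Axin2. In the pairs with a Ctnnb1 mutation the same 25 genes had a median of 1.95 with 11 genes higher. In 18 of the 25 the tumor effect was lower without the mutation than with it by the test of the difference, which called 3.31% of 15182 genes (1.79% higher and 1.52% lower without the mutation). Cyp2e1 and Gstm3 were no longer called without mouse p_941 (adjusted p from 0.0509 to 0.0841), Cyp2e1 without mouse NT_992 (adjusted p = 0.0687) and Gstm3 without mouse L981_CI (adjusted p = 0.0511).

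Periportal genes did not move as a block. Of 24 tested, 6 rose, 8 fell, and 10 did not pass, with a median of -0.38 and per-mouse medians from -1.18 in mouse NT_992 to 0.18 in mouse L984_CI. Cdh1, the adhesion protein E-cadherin, rose from 23.4, 9.15, 11.0, and 5.55 to 132, 227, 162, and 152 CPM (log2 fold change 3.97 ± 0.41, adjusted p = 0.00295), and Hsd17b13, a lipid droplet enzyme, from 265, 289.8, 193, and 240.2 to 1353, 731, 519, and 689 CPM (log2 fold change 1.68 ± 0.25, adjusted p = 0.00864). Igfals, the carrier subunit of circulating IGF, fell from 118, 159, 167, and 183 to 12.1, 37.0, 29.6, and 52.9 CPM (log2 fold change -2.39 ± 0.26, adjusted p = 0.00342). Sult5a1, a sulfotransferase, fell with a log2 fold change of -3.50 ± 0.46 and Cyp2f2, a periportal P450, with -1.49 ± 0.27, each lower than its own liver in all 4 mice but with overlap between the groups. Cyp2f2 remained at 345, 356, 99.3, and 72.1 CPM in these tumors and was at 3.35 and 1.9 CPM in the tumors with a Ctnnb1 mutation (difference 6.96 ± 0.51, adjusted p = 0.00143). In the mutated pairs 17 of the 24 genes fell and none rose, with a median of -3.25, and 14 had a higher tumor effect without the mutation. Cyp2f2 was no longer called without mouse NT_992 (adjusted p = 0.0506).

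**Figure D2:**
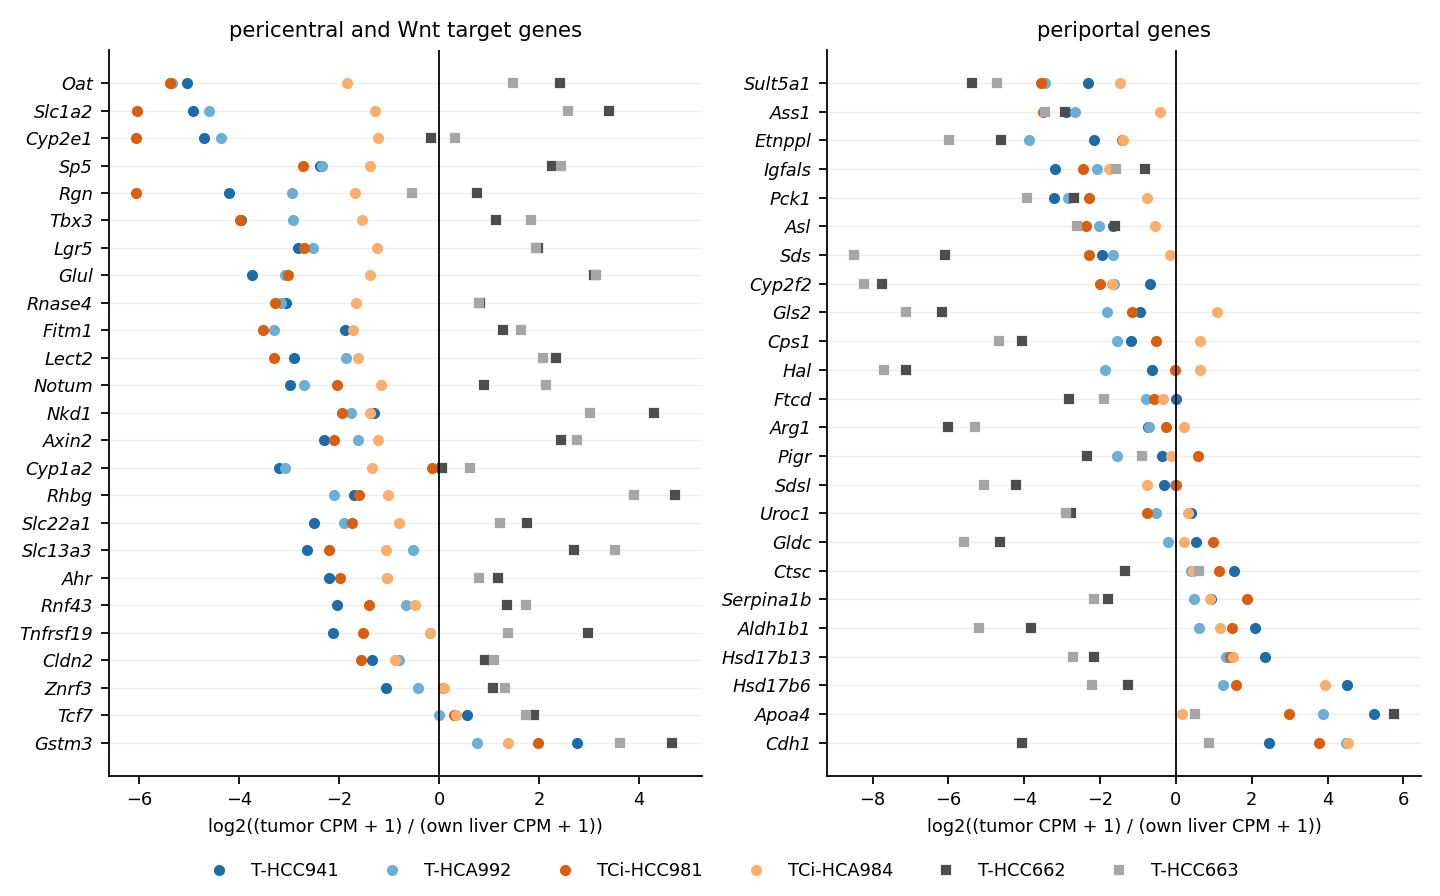
Log2 ratio of tumor to own liver, (CPM + 1) over (CPM + 1), for each pericentral gene (left) and periportal gene (right), with circles for the 4 tumors without a Ctnnb1 mutation and squares for the 2 tumors with one. In the pericentral panel the circles lie mostly below zero and the squares mostly above it (medians of the fitted log2 fold changes -2.21 and 1.95), and in the periportal panel the circles spread around zero and the squares lie mostly below it (medians -0.38 and -3.25).

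Enzymes that break down amino acids fell, and none of them rose. Of 55 tested, 34 fell and 21 did not pass, with a median of -0.93. The summed level of the list was 27771 to 29923 CPM in the livers and 8806 to 18293 CPM in the tumors, without overlap. Prodh, the first enzyme of proline breakdown, was at 511, 340.1, 320.2, and 161 CPM in the livers and 38.2, 19.7, 10.9, and 62.2 CPM in the tumors (log2 fold change -3.57 ± 0.60, adjusted p = 0.0114). Bhmt, which remethylates homocysteine with betaine, was at 3747, 3507, 5558, and 8706 CPM in the livers and 609, 729, 293, and 2973 CPM in the tumors (log2 fold change -2.63 ± 0.49, adjusted p = 0.0148). In both genes the tumor of mouse L984_CI was the highest of the tumors and still below every liver. Dmgdh, which acts after Bhmt on dimethylglycine, fell with a log2 fold change of -1.95 ± 0.26, Gcdh of lysine breakdown with -1.98 ± 0.32, and Prodh2 of hydroxyproline breakdown with -1.04 ± 0.18. Per-mouse medians were -1.36, -1.21, -1.02, and -0.28, and no gene of the list was higher than liver in mouse NT_992 while 16 were in mouse L984_CI. The list fell in the pairs with a Ctnnb1 mutation as well, with a median of -1.08, 16 genes lower and none higher. By the test of the difference, 8 genes had a higher tumor effect without the mutation.

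The urea cycle, which turns ammonia from these reactions into urea, was lower as well. Of its 10 genes 6 fell and 4 did not pass, with a median of -0.86. In the pairs with a Ctnnb1 mutation 6 genes fell as well, with a median of -2.27. Ass1, argininosuccinate synthase, was at 452, 490.4, 346, and 91.4 CPM in the livers and 59.5, 76.9, 29.3, and 68.5 CPM in the tumors (log2 fold change -2.43 ± 0.52, adjusted p = 0.0218). Asl, the next enzyme, was at 569, 626, 597, and 268 CPM in the livers and 180.4, 152, 114, and 181 CPM in the tumors (log2 fold change -1.65 ± 0.33, adjusted p = 0.0171), and Otc, which makes citrulline, at 243, 344, 302, and 147 and 84.8, 55.2, 55.9, and 129 CPM (log2 fold change -1.69 ± 0.43, adjusted p = 0.0344). In all 3 the liver of mouse L984_CI was the lowest liver, and the ranges of tumors and livers were apart. The mitochondrial carriers Slc25a15 for ornithine and Slc25a13 for aspartate and glutamate fell with a log2 fold change of -1.56 ± 0.28 and -0.99 ± 0.19, and Nags, which makes the activator of the cycle, with -0.63 ± 0.16. Prodh, Bhmt, Gcdh, Prodh2, Ass1, Asl, Otc, Slc25a15, Slc25a13, and Nags were no longer called without mouse p_941 (adjusted p from 0.0504 to 0.105), Prodh2, Ass1, Asl, Otc, Slc25a15, Slc25a13, and Nags without mouse NT_992 (adjusted p from 0.0527 to 0.123), Ass1, Otc, and Nags without mouse L981_CI (adjusted p from 0.0583 to 0.0981) and Nags without mouse L984_CI (adjusted p = 0.0809).

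Of 20 enzymes of gluconeogenesis and liver sugar handling 3 fell, 1 rose, and 16 did not pass, against 9.73% lower and 11.3% higher over all genes tested. G6pc, the last step of glucose release, was at 179, 376, 508, and 434 CPM in the livers and 34.1, 106, 152, and 157 CPM in the tumors (log2 fold change -1.83 ± 0.21, adjusted p = 0.00393). Pck1, the committed step of gluconeogenesis, was at 3435, 1480, 1609, and 3872 CPM in the livers and 367, 207, 328, and 2291 CPM in the tumors (log2 fold change -2.28 ± 0.46, adjusted p = 0.0177), with TCi-HCA984 inside the liver range. Sord, which oxidizes sorbitol, fell with a log2 fold change of -1.32 ± 0.24, Pgm1 rose by 1.64 ± 0.32, and Fbp1 did not pass (log2 fold change -1.20 ± 0.35, adjusted p = 0.054). Of 21 glycolytic isozymes of fetal tissue and tumors 9 rose and none fell, with a median of 0.72. G6pdx, which opens the pentose phosphate pathway, was at 3.86, 9.41, 14.7, and 3.96 CPM in the livers and 50.2, 116, 116, and 17.2 CPM in the tumors (log2 fold change 3.13 ± 0.29, adjusted p = 0.00215). Hkdc1, a hexokinase, rose by 3.31 ± 0.74, Gpi1, glucose phosphate isomerase, by 1.19 ± 0.21, Pfkp, the platelet phosphofructokinase, by 0.97 ± 0.23, and Aldoa, the muscle aldolase, by 0.79 ± 0.20. Pck1, Sord, Pgm1, Gpi1, Pfkp, and Aldoa were no longer called without mouse p_941 (adjusted p from 0.0539 to 0.14), Pck1, Sord, Pgm1, Hkdc1, Pfkp, and Aldoa without mouse NT_992 (adjusted p from 0.053 to 0.123), Pck1 and Pfkp without mouse L981_CI (adjusted p from 0.0501 to 0.0553) and Pfkp and Aldoa without mouse L984_CI (adjusted p from 0.0774 to 0.0914).

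Fatty acid oxidation genes fell in 15 of 30 cases and none rose, with a median of -0.83 and per-mouse medians below zero in all 4 mice (-0.52, -0.82, -1.10, and -0.50). Acaa1a, the peroxisomal thiolase, was at 379, 306, 291, and 308 CPM in the livers and 122, 102, 102, and 168 CPM in the tumors (log2 fold change -1.38 ± 0.20, adjusted p = 0.00768). Cpt2 and Slc25a20, which carry fatty acids into mitochondria, fell with a log2 fold change of -1.12 ± 0.17 and -1.01 ± 0.19, Acadvl, the first dehydrogenase for long chains, with -0.98 ± 0.18, and Eci1, an isomerase for unsaturated chains, with -0.95 ± 0.17. The median of this list in the pairs with a Ctnnb1 mutation was 0.05, and in 5 of the 30 genes the tumor effect was lower without the mutation.

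Genes of fatty acid and triglyceride synthesis and storage were divided, with 7 of 29 higher, 1 lower, and a median of 0.29. Over all genes tested 11.3% were higher and 9.73% lower. Scd2, the stearoyl-CoA desaturase of fetal liver and brain, was at 3.62, 18.5, 21.7, and 3.37 CPM in the livers and 973, 1134, 386, and 153 CPM in the tumors (log2 fold change 5.87 ± 0.68, adjusted p = 0.00421). Pnpla3, a lipid droplet hydrolase, rose from 1.54, 4.84, 1.86, and 0.248 to 74.4, 169, 20.1, and 10.5 CPM (log2 fold change 4.82 ± 0.39, adjusted p = 0.00169), and Lpl, lipoprotein lipase, which adult hepatocytes barely make, from 17.7, 24.0, 109, and 10.2 to 735, 165, 642, and 223 CPM (log2 fold change 3.79 ± 0.55, adjusted p = 0.00776). In these 3 genes every tumor was above every liver. Fabp4, a fatty acid carrier of fat cells and macrophages, rose by 2.31 ± 0.21. Plin4, a coat protein of lipid droplets, went the other way, from 44.0, 39.9, 59.0, and 122 to 5.3, 4.76, 0.967, and 38.6 CPM (log2 fold change -3.22 ± 0.62, adjusted p = 0.0161), and its tumor effect was lower than in the mutated pairs by -6.26 ± 0.96, adjusted p = 0.0181. In cholesterol synthesis 2 of 23 genes rose and 2 fell, shares no larger than the 11.3% higher and 9.73% lower over all genes tested. Lss, which closes the sterol rings, rose by 1.26 ± 0.35, although in mouse L984_CI it was lower in tumor than in liver (79.9 against 87.7 CPM). Ebp fell with a log2 fold change of -0.93 ± 0.19 and Tm7sf2 with -0.71 ± 0.18. Slc25a20, Acadvl, Plin4, Lss, Ebp, and Tm7sf2 were no longer called without mouse p_941 (adjusted p from 0.0638 to 0.16), Acadvl, Eci1, Plin4, Lss, and Tm7sf2 without mouse NT_992 (adjusted p from 0.0525 to 0.137) and Lss, Ebp, and Tm7sf2 without mouse L981_CI (adjusted p from 0.053 to 0.135).

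Bile acid genes fell in 11 of 24 cases and rose in 2, with a median of -1.16 and a summed level of 5667 to 7878 CPM in the livers and 2657 to 3884 CPM in the tumors. Slc10a1, which takes bile acids up from blood, was at 343, 525, 374, and 407 CPM in the livers and 86.7, 152, 60.1, and 229.6 CPM in the tumors (log2 fold change -1.79 ± 0.31, adjusted p = 0.012). Cyp7b1 of the alternative synthesis pathway fell from 777, 157, 147, and 76.4 to 33.6, 5.94, 14.9, and 29.7 CPM (log2 fold change -3.51 ± 0.61, adjusted p = 0.0122). Hsd3b7, an early enzyme of synthesis, fell with a log2 fold change of -1.25 ± 0.19, and Nr1h4, the bile acid receptor FXR, with -1.29 ± 0.22. Abcc4, an exporter to blood, rose from 0.925, 4.41, 8.27, and 2.28 to 27.3, 13.4, 119, and 29.6 CPM (log2 fold change 3.45 ± 0.51, adjusted p = 0.00803).

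Cytochrome P450 genes fell in 15 of 41 cases, and 1 rose, with a median of -1.39. Cyp2c37 was at 469, 580.0, 782, and 304 CPM in the livers and 16.5, 9.92, 6.77, and 70.9 CPM in the tumors (log2 fold change -5.00 ± 0.85, adjusted p = 0.0119). Cyp2c44 fell with a log2 fold change of -2.09 ± 0.36, Cyp4f15 with -2.14 ± 0.30, and Cyp2u1, which is also counted among male-biased genes, with -2.21 ± 0.29. The gene that rose was Cyp2a4, a steroid hydroxylase that is typical of female liver, from 0.694, 5.21, 19.2, and 0.743 to 2341, 2312, 2747, and 2658 CPM (log2 fold change 9.70 ± 1.08, adjusted p = 0.00369). The 4 tumors had nearly equal levels of it while the livers differed widely among themselves, and T-HCC662 and T-HCC663 had 16.3 and 27.6 CPM (difference 7.54 ± 1.37, adjusted p = 0.0285). Cyp2a4 is nearly identical to Cyp2a5 and Cyp2c37 to Cyp2c50, so reads may have been assigned to the wrong member of each pair. Slc10a1, Cyp7b1, Nr1h4, Cyp2c37, and Cyp2c44 were no longer called without mouse p_941 (adjusted p from 0.051 to 0.0572).

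Genes that differ between male and female mouse liver were also read, and the male-biased ones fell while the female-biased ones moved unevenly among the mice. Of 22 major urinary protein and other male-biased genes 15 fell and none rose, with a median of -3.46. In the pairs with a Ctnnb1 mutation 17 of them fell, with a median of -6.465. Elovl3, a fatty acid elongase, was at 179, 657, 13.5, and 16.2 CPM in the livers and 7.42, 14.9, 0.204, and 4.48 CPM in the tumors (log2 fold change -4.36 ± 0.69, adjusted p = 0.00993), and Mup14 at 904, 747, 14.3, and 107 and 24.5, 18.1, 0.0509, and 30.9 CPM (log2 fold change -4.65 ± 0.84, adjusted p = 0.0134). Both were lower than own liver in every mouse, but their levels in the livers differed so much between mice that the groups overlapped. Cyp4a12b, a fatty acid hydroxylase, fell with a log2 fold change of -3.40 ± 0.46. Mup14 shares near-identical sequence with 15 other Mup genes and Cyp4a12b with Cyp4a12a. Of 15 female-biased genes tested 4 rose and 1 fell, against 11.3% higher and 9.73% lower over all genes tested. Their median was 1.03, but the per-mouse medians were 1.69, 0.14, -1.26, and 1.00. In mouse L981_CI 5 of the 15 genes were higher in tumor than in liver. Beside Cyp2a4 and Prom1, Rtn4, a reticulon of the endoplasmic reticulum, rose from 52.8, 68.3, 108, and 62.9 to 278, 266, 469.8, and 187 CPM (log2 fold change 2.03 ± 0.20, adjusted p = 0.00258) and Cyp17a1, a steroid hydroxylase, by 2.12 ± 0.56, whereas Cyp4a10 fell with a log2 fold change of -3.96 ± 1.11. Mup14, Cyp17a1, and Cyp4a10 were no longer called without mouse p_941 (adjusted p from 0.0633 to 0.121) and Mup14, Cyp17a1, and Cyp4a10 without mouse NT_992 (adjusted p from 0.0524 to 0.142).

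**Figure D3:**
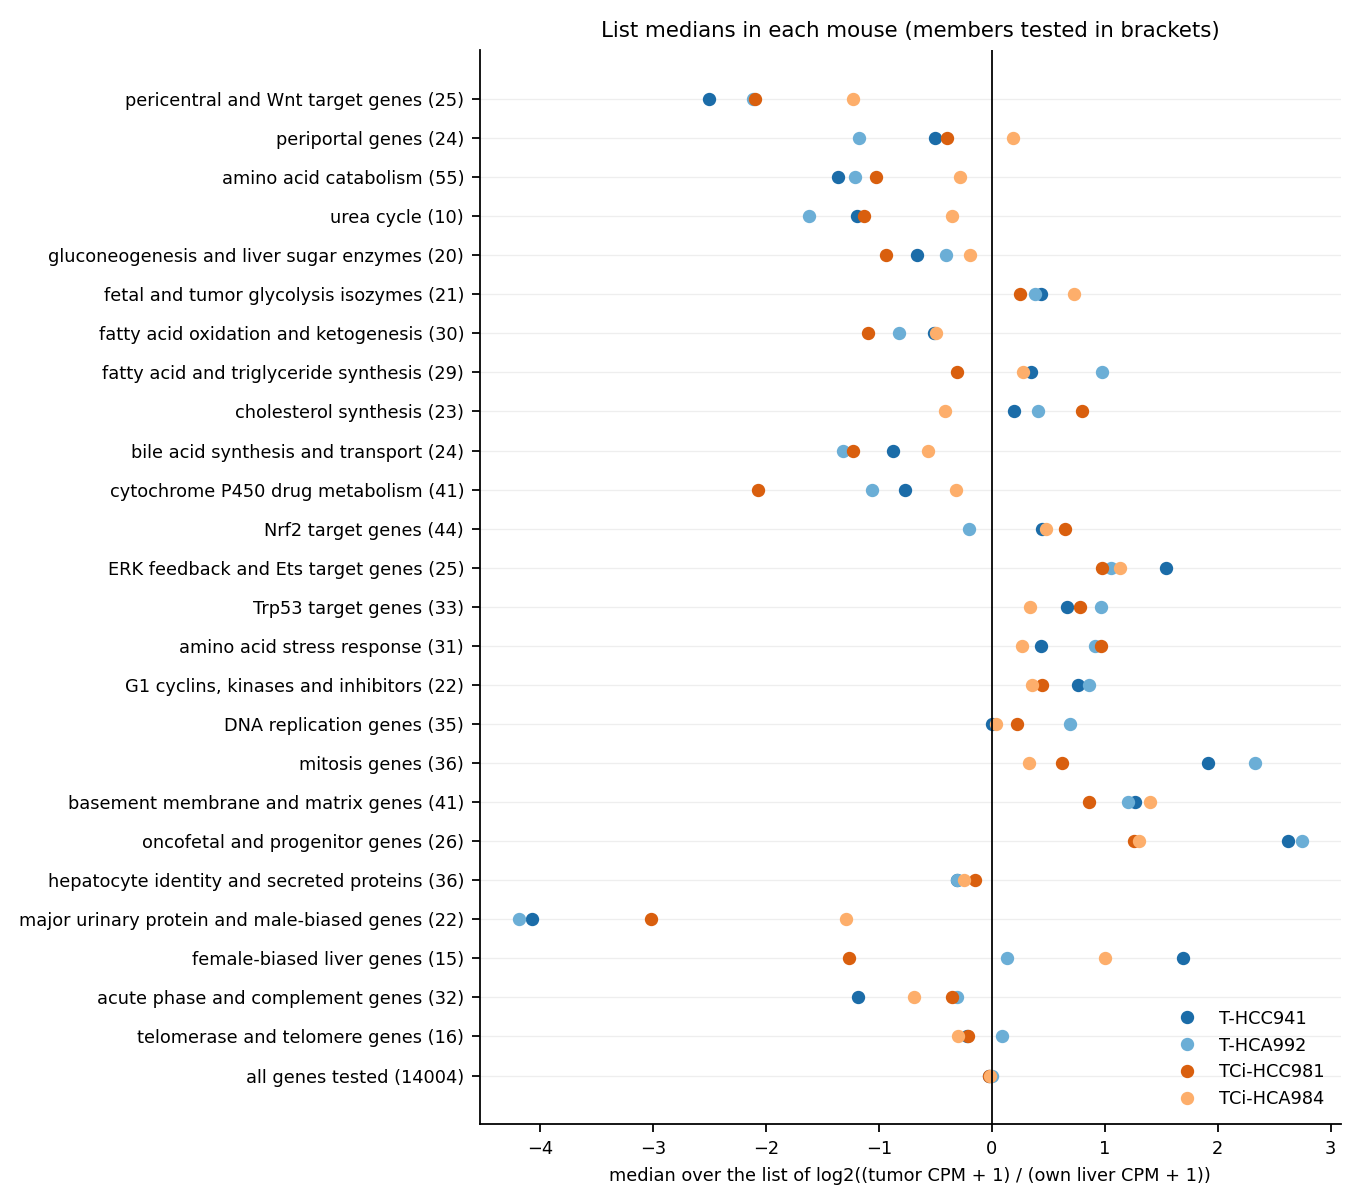
Median over each gene list of the log2 ratio of tumor to own liver, (CPM + 1) over (CPM + 1), with 1 point for each mouse and the number of members tested in brackets. Pericentral, male-biased, P450, bile acid, and amino acid lists lie below zero in all 4 mice and matrix, mitosis, ERK, and oncofetal lists above it. TCi-HCA984 is the point nearest to zero in the pericentral, urea cycle, P450, male-biased, and mitosis lists.

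Genes that follow ERK, the kinase at the end of the Ras and EGF receptor pathways, rose in 15 of 25 cases and 1 fell, with a median of 1.63. The per-mouse medians were 1.54 in the tumor with the Egfr mutation, 1.05 and 1.14 in the adenomas of mice NT_992 and L984_CI, and 0.97 in the tumor with the Hras mutation. Dusp4 and Dusp5 encode phosphatases that switch ERK off. Dusp4 rose from 0.463, 1.91, 0.802, and 1.14 to 14.6, 11.0, 16.2, and 17.3 CPM (log2 fold change 3.85 ± 0.43, adjusted p = 0.00369) and Dusp5 from 0.0771, 0.957, 0.633, and 0.595 to 11.6, 8.31, 20.1, and 6.38 CPM (log2 fold change 4.28 ± 0.57, adjusted p = 0.00615). Spry4, a feedback inhibitor upstream of ERK, rose from 4.47, 5.27, 6.71, and 5.05 to 18.1, 10.9, 27.1, and 22.3 CPM (log2 fold change 1.83 ± 0.24, adjusted p = 0.00595). All 4 tumors were above all 4 livers in each of these genes, the adenomas included. Spry4 was at 1.43 and 0.864 CPM in the mutated tumors, and the difference between classes was 5.56 ± 0.43, adjusted p = 0.00143. Ier3 rose by 2.22 ± 0.32 and Tgfa, a ligand of the EGF receptor, by 1.09 ± 0.16. The gene that fell, Phlda1, was named after its values were seen (log2 fold change -0.77 ± 0.21, adjusted p = 0.0407). Egfr itself was at 385, 142, 299, and 377 CPM in the livers and 159, 609.9, 197, and 202 CPM in the tumors (log2 fold change -0.24 ± 0.55, adjusted p = 0.789), highest in T-HCA992, and Hras at 67.7, 42.9, 37.6, and 66.2 and 67.6, 60.6, 45.6, and 38.3 CPM (log2 fold change 0.02 ± 0.22, adjusted p = 0.957). Neither passed the test, and the direction of both turned when single mice were left out. Phlda1 was no longer called without mouse p_941, NT_992, L981_CI, or L984_CI (adjusted p from 0.0506 to 0.146).

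Targets of p53, the DNA damage response factor, rose in 15 of 33 cases and none fell, with a median of 0.68. Tnfrsf10b, a death receptor, was at 0.694, 0.585, 1.06, and 0.892 CPM in the livers and 13.0, 17.3, 11.5, and 10.8 CPM in the tumors (log2 fold change 4.01 ± 0.32, adjusted p = 0.00162). Psrc1, a microtubule protein, rose from 0.848, 0.372, 0.929, and 0.495 to 53.5, 40.2, 82.8, and 5.75 CPM (log2 fold change 5.87 ± 0.50, adjusted p = 0.00177), least in mouse L984_CI. Btg2, a growth suppressor, rose by 2.69 ± 0.25, Phlda3, an inhibitor of AKT, by 3.48 ± 0.48, and the kinase Plk2 by 1.33 ± 0.23. Trp53 was at 18.9, 26.5, 42.4, and 26.3 CPM in the livers and 33.9, 36.5, 44.7, and 31.1 CPM in the tumors and did not pass (log2 fold change 0.42 ± 0.17, adjusted p = 0.117). Cdkn1a, a p53 target whose promoter drives the knocked-in allele, was at 4.16, 28.6, 7.22, and 52.2 CPM in the livers and 79.6, 74.2, 72.1, and 53.5 CPM in the tumors (log2 fold change 2.22 ± 0.71, adjusted p = 0.0684). Every tumor was above every liver for Cdkn1a, but livers NT_992 and L984_CI were several times above livers p_941 and L981_CI, and the test was not passed. Tert was at 10.7, 14.3, 11.1, and 12.9 CPM in the livers and 9.22, 26.1, 15.7, and 17.1 CPM in the tumors (log2 fold change 0.42 ± 0.20, adjusted p = 0.177), higher than liver in 3 mice and lower in mouse p_941. In the mutated tumors Tert was at 7.91 and 4.62 CPM against 17.5 and 11.6 CPM in liver, and the difference between classes was 1.63 ± 0.36, adjusted p = 0.0495. The Tert counts do not separate reads of the knocked-in Tert or TertCi sequence from reads of the endogenous gene.

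Among G1 regulators 8 of 22 rose and none fell. Cdkn2b, the inhibitor p15 of CDK4 and CDK6, was at 0.154, 0.532, 0.506, and 0.396 CPM in the livers and 17.4, 22.0, 32.7, and 5.46 CPM in the tumors (log2 fold change 5.42 ± 0.45, adjusted p = 0.00175). Cdkn2a, the neighboring inhibitor locus that encodes p16 and Arf, was at 0.386, 1.22, 1.65, and 0.446 CPM in the livers and 3.34, 5.37, 18.9, and 1.72 CPM in the tumors (log2 fold change 2.71 ± 0.38, adjusted p = 0.00726), highest in TCi-HCC981. The study's exome data list Cdkn2a and Cdkn2b as deleted in TCi-HCC981, the tumor with the highest level of both. How copy number relates to these levels was not tested. Ccne1, cyclin E, rose by 2.74 ± 0.48, Cdc25a, which activates its kinase, by 1.32 ± 0.22, and Rbl1, a pocket protein, by 1.49 ± 0.25. Inhibitors and activators of entry into S phase thus rose in the same tumors.

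Mitosis genes rose in 20 of 36 cases and none fell, with a median of 2.18, but the size differed among mice. Per-mouse medians were 1.91, 2.33, 0.62, and 0.33. Mki67, the proliferation antigen Ki-67, was at 3.08, 5.85, 10.2, and 0.347 CPM in the livers and 28.9, 49.2, 17.7, and 3.1 CPM in the tumors (log2 fold change 2.50 ± 0.46, adjusted p = 0.0141), and Top2a, the topoisomerase of dividing cells, at 1.77, 3.62, 5.49, and 0.297 and 12.9, 31.0, 12.2, and 1.03 CPM (log2 fold change 2.29 ± 0.39, adjusted p = 0.0118). In both genes each tumor was above its own liver, yet TCi-HCA984 was below the livers of mice NT_992 and L981_CI, and the adenoma T-HCA992 had the highest RNA level. The study's Ki67 protein staining was instead minimal in both adenomas and strong in T-HCC941. Cenpf rose by 3.47 ± 0.60, Racgap1 by 3.20 ± 0.58, and the kinase Cdk1 by 2.28 ± 0.48. In the mutated pairs the list had a median of 3.89 with 24 genes higher, and the test of the difference called none of the 36. DNA replication genes rose in 4 of 35 cases, a share close to the 11.3% of all genes tested, namely Lig1 (1.17), Mcm6 (1.45), Mcm2 (1.10), and Dnmt1 (0.49). The replication factor Mcm10 fell, from 132, 62.8, 58.1, and 90.5 to 16.3, 13.6, 9.06, and 34.1 CPM (log2 fold change -2.31 ± 0.27, adjusted p = 0.00447). Plk2, Ccne1, Mki67, Top2a, Cenpf, Cdk1, Mcm6, Mcm2, and Dnmt1 were no longer called without mouse p_941 (adjusted p from 0.0505 to 0.141), Rbl1, Mki67, Top2a, Cenpf, Racgap1, Cdk1, Lig1, Mcm6, Mcm2, and Dnmt1 without mouse NT_992 (adjusted p from 0.0506 to 0.175), Lig1, Mcm6, Mcm2, and Dnmt1 without mouse L981_CI (adjusted p from 0.0573 to 0.163) and Dnmt1 without mouse L984_CI (adjusted p = 0.0795).

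The amino acid stress response, run by the factor ATF4, rose in 13 of 31 genes and fell in 1, with a median of 0.74. Slc7a11, which exchanges glutamate for cystine and so feeds glutathione synthesis, was at 0, 0.319, 0.38, and 0 CPM in the livers and 70.3, 9.27, 129.6, and 53.9 CPM in the tumors (log2 fold change 8.30 ± 0.80, adjusted p = 0.00251). Trib3, a pseudokinase, rose from 16.6, 7.02, 9.75, and 16.0 to 74.8, 27.2, 82.5, and 52.99 CPM (log2 fold change 2.25 ± 0.25, adjusted p = 0.0035), and Nupr1, a stress-induced chromatin protein, from 2.16, 2.61, 3.93, and 3.17 to 11.3, 16.0, 45.6, and 9.66 CPM (log2 fold change 2.57 ± 0.33, adjusted p = 0.0053). These 3 genes were higher in every tumor than in any liver. Phgdh, which opens serine synthesis, rose by 3.46 ± 0.34, with tumor levels of 6.52, 9.85, 10.2, and 1.21 CPM and TCi-HCA984 inside the liver range, and Cars, the cysteinyl-tRNA synthetase, by 1.10 ± 0.18. Phgdh has 13 near-identical copies in the annotation, mostly pseudogenes, which could take or lend reads.

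Slc7a11 is also among the targets of Nrf2, the factor of oxidative stress. Of 44 such targets 13 rose and 2 fell, against 11.3% higher and 9.73% lower over all genes tested. The list had a median of 0.36 and per-mouse medians of 0.44, -0.20, 0.65, and 0.48. Cbr3, a carbonyl reductase, was at 0.463, 1.38, 2.15, and 0.941 CPM in the livers and 145, 29.1, 167, and 83.7 CPM in the tumors (log2 fold change 6.23 ± 0.57, adjusted p = 0.0021). Srxn1, which repairs oxidized peroxiredoxins, rose from 68.8, 84.4, 55.0, and 54.1 to 418, 212, 301, and 143 CPM (log2 fold change 1.97 ± 0.29, adjusted p = 0.00789). Both had their lowest tumor level in an adenoma, and every tumor was above every liver. Nfe2l2, the gene of Nrf2, was at 66.3, 103, 105, and 72.7 CPM in the livers and 75.8, 202, 77.7, and 113 CPM in the tumors (log2 fold change 0.37 ± 0.24, adjusted p = 0.312) and did not pass. 

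The promoter windows of Slc7a11 and Srxn1 are printed because both genes rose in all 4 tumors and each window holds a short motif that is known for its list. They were chosen after their values were seen. They run from 250 bases before to 50 bases after the RefSeq start, in build GRCm38.p6 and 5′ to 3′ on the strand of the gene. In Slc7a11, chr3:50443564-50443863 on the minus strand, capitals mark 2 matches of the core of the amino acid response element, TGATGCAA or its reverse complement TTGCATCA. In Srxn1, chr2:152105274-152105573 on the plus strand, capitals mark 1 match of the antioxidant response element core TGANTCAGC, searched on both strands. The first motif was found in 0.895% and the second in 1.19% of 32851 windows of the same length, and a match is a description of the letters and not of a bound site.
Slc7a11: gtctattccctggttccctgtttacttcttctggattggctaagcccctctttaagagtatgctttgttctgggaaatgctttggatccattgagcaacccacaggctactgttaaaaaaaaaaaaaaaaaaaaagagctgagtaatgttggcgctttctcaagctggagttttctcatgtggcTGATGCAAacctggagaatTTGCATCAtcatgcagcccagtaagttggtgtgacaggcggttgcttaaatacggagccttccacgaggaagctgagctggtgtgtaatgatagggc
Srxn1: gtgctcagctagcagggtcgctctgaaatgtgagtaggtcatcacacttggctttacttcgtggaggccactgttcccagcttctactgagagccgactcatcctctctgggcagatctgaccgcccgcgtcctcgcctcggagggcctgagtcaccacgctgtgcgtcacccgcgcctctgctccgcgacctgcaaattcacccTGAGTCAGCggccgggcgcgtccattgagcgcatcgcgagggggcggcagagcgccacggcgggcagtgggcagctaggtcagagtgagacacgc

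Oncofetal and progenitor genes, active in fetal liver or biliary progenitors and silent in adult hepatocytes, rose in 12 of 26 cases and none fell, with a median of 1.85. Tspan8, a tetraspanin of epithelial tumors, was at 0.308, 1.28, 0.929, and 0.545 CPM in the livers and 151, 28.0, 219, and 51.3 CPM in the tumors (log2 fold change 6.82 ± 0.71, adjusted p = 0.00303). Prom1, the progenitor marker CD133, rose from 0.231, 1.06, 2.07, and 1.29 to 33.1, 39.5, 37.4, and 11.9 CPM (log2 fold change 4.64 ± 0.52, adjusted p = 0.00384), and Sox9, a factor of bile duct and progenitor cells, from 7.17, 7.55, 14.8, and 10.4 to 29.0, 21.9, 55.8, and 21.9 CPM (log2 fold change 1.66 ± 0.20, adjusted p = 0.00464). These genes were higher in every tumor than in any liver. Sox9 was at 2.41 and 2.98 CPM in the mutated tumors, and the classes differed by 3.43 ± 0.35, adjusted p = 0.00397. Named after their values were seen, Afp, the fetal serum protein, rose from 2.47, 3.67, 4.52, and 6.69 to 231, 116, 52.4, and 29.2 CPM (log2 fold change 4.24 ± 0.72, adjusted p = 0.0118). H19, an imprinted fetal RNA, went from 0.231, 0.106, 0.0844, and 0.297 to 2038, 17.2, 1305, and 7.82 CPM (log2 fold change 11.07 ± 1.70, adjusted p = 0.00902), far higher in the 2 carcinomas than in the 2 adenomas. The fitted changes of H19, Slc7a11, Apln, Klrb1b, and Tff3 start from few liver reads and depend on the prior count of the fit. The fetal RNA-binding genes Igf2bp1 and Lin28b had no read in any of the 8 libraries.

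Of 36 hepatocyte identity and secreted protein genes, 30 did not pass, 6 fell, and none rose, against 9.73% lower and 11.3% higher over all genes tested. Hnf4a, the factor that keeps hepatocyte identity, was at 687, 746, 497, and 893 CPM in the livers and 765, 646, 595, and 651 CPM in the tumors (log2 fold change -0.04 ± 0.22, adjusted p = 0.906). Alb, albumin, was higher in every tumor (70824, 68159, 61024, and 48236 CPM) than in any liver (9706, 31667, 16203, and 20420 CPM) but did not pass (log2 fold change 1.79 ± 0.53, adjusted p = 0.054), and the same was true of Trf, transferrin (log2 fold change 1.09 ± 0.43, adjusted p = 0.116). Serpina1a did not pass either (log2 fold change 0.62 ± 0.27, adjusted p = 0.148), and Tat, a tyrosine-degrading enzyme, was the hepatocyte marker that fell (log2 fold change -1.92 ± 0.40, adjusted p = 0.0195). Hamp, the iron hormone hepcidin, fell from 1113, 944, 1633, and 1983 to 71.2, 97.1, 22.3, and 569 CPM (log2 fold change -3.74 ± 0.72, adjusted p = 0.0164), and Tfr2, an iron sensor that controls it, with -1.07 ± 0.26. Igf1, the growth hormone effector made by liver, fell from 748, 539, 951, and 761 to 98.3, 185, 109.7, and 312 CPM (log2 fold change -2.20 ± 0.38, adjusted p = 0.0119), and Ghr, the growth hormone receptor, with -1.23 ± 0.22. Tat, Hamp, Tfr2, Igf1, and Ghr were no longer called without mouse p_941 (adjusted p from 0.054 to 0.116), Tat, Hamp, Tfr2, and Ghr without mouse NT_992 (adjusted p from 0.0523 to 0.0768) and Tat and Tfr2 without mouse L981_CI (adjusted p from 0.0546 to 0.0833).

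Acute phase and complement genes fell in 12 of 32 cases and 1 rose, with a median of -0.56. Orm3, an orosomucoid, was at 132, 15.3, 209, and 72.6 CPM in the livers and 7.42, 0.322, 1.88, and 25.2 CPM in the tumors (log2 fold change -4.36 ± 0.89, adjusted p = 0.0188), and Saa3, a serum amyloid, at 41.3, 8.19, 33.6, and 15.4 and 3.23, 2, 3, and 5.8 CPM (log2 fold change -2.63 ± 0.42, adjusted p = 0.0101). Saa4 fell with a log2 fold change of -1.42 ± 0.30, and the mannose-binding lectins Mbl1 and Mbl2 with -1.69 ± 0.25 and -1.23 ± 0.27. The summed level of the list ranged from 27391 to 153031 CPM among the livers, so the livers differed in it more than the tumors (31164 to 90750 CPM). Of 16 genes of telomerase and telomeres 2 fell and none rose, against 9.73% lower and 11.3% higher over all genes tested, so the share that fell was near that of all genes. Wrap53, which guides telomerase RNA to Cajal bodies, fell from 16.0, 11.7, 12.5, and 13.3 to 8, 6.8, 7.07, and 8.79 CPM (log2 fold change -0.78 ± 0.17, adjusted p = 0.0237), and Nop10, a protein of the telomerase RNA particle, with -0.46 ± 0.13. The shelterin genes Acd and Pot1b (-0.42 and -0.50) and Ctc1 of the CST complex (0.51) did not pass, and the list had a median of -0.18. Orm3, Mbl2, Wrap53, and Nop10 were no longer called without mouse p_941 (adjusted p from 0.0747 to 0.123), Orm3, Saa4, Wrap53, and Nop10 without mouse NT_992 (adjusted p from 0.063 to 0.132), Wrap53 and Nop10 without mouse L981_CI (adjusted p from 0.0662 to 0.0928) and Mbl2 and Nop10 without mouse L984_CI (adjusted p from 0.0671 to 0.12).

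Markers of other cell types were read to see which cells the tissue pieces held. In bulk tissue fewer cells of a type and less RNA per cell cannot be told apart. Capillary endothelial genes rose in 9 of 13 cases and none fell, with a median of 1.97 and a summed level of 45.2 to 184 CPM in the livers and 281 to 385 CPM in the tumors. Apln, apelin of sprouting vessels, was at 0.386, 0.0532, 0, and 0.0991 CPM in the livers and 18.7, 6.09, 4.73, and 16.7 CPM in the tumors (log2 fold change 6.66 ± 0.49, adjusted p = 0.00138), Cd34 at 1.85, 1.44, 1.6, and 0.941 and 24.4, 15.2, 13.8, and 19.02 CPM (log2 fold change 3.64 ± 0.27, adjusted p = 0.00138), and Esm1, endocan, at 1.7, 1.76, 0.253, and 0.941 and 44.7, 23.8, 70.5, and 46.1 CPM (log2 fold change 5.34 ± 0.63, adjusted p = 0.00443). Ly6c1 rose by 5.37 ± 0.60, and all of these genes were higher in every tumor than in any liver. Sinusoidal endothelial genes had a median of 0.01 (14 tested, 2 higher and 1 lower, near the 11.3% higher and 9.73% lower over all genes tested). Flt4, a VEGF receptor, rose by 3.54 ± 0.28, Stab1, a scavenger receptor, by 0.84 ± 0.19, Gata4, the factor of sinusoidal fate, fell with a log2 fold change of -0.67 ± 0.15, and Lyve1 did not pass (log2 fold change 2.08 ± 0.62, adjusted p = 0.0547). The summed level of the sinusoidal list was 129 to 370.1 CPM in the livers and 310.0 to 562 CPM in the tumors. Endothelial cells also make collagen IV, and the part of the capillary genes in the matrix result was not tested.

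Resident and incoming macrophage genes moved in opposite directions. Of 12 Kupffer cell genes 6 fell and none rose (median -0.74, summed level 202 to 1937 CPM in the livers and 197 to 1427 CPM in the tumors). Marco, a scavenger receptor, was at 26.8, 12.0, 37.3, and 11.2 CPM in the livers and 1.64, 0.644, 0.458, and 2.64 CPM in the tumors (log2 fold change -4.01 ± 0.63, adjusted p = 0.00963), and Clec4f, a lectin of Kupffer cells, at 91.8, 90.5, 442, and 42.2 and 27.1, 29.0, 162, and 24.5 CPM (log2 fold change -1.39 ± 0.20, adjusted p = 0.00803). Timd4 and Cd163 fell with a log2 fold change of -2.86 ± 0.50 and -2.48 ± 0.39, and TCi-HCA984 had the highest tumor level of Marco and Cd163. Of 12 monocyte and infiltrating macrophage genes 5 rose and none fell (median 0.95, summed level 131 to 581 against 469 to 1224 CPM). Cd14, the endotoxin co-receptor, rose from 2.78, 1.86, 11.9, and 5.7 to 108, 33.2, 142, and 81.7 CPM (log2 fold change 4.18 ± 0.31, adjusted p = 0.00138), Gpnmb, of lipid-laden macrophages, by 3.43 ± 0.29, Itgax by 1.84 ± 0.35, and Cx3cr1 by 1.72 ± 0.48. Stab1 and Cx3cr1 were no longer called without mouse p_941 (adjusted p from 0.0777 to 0.0991), Stab1, Gata4, and Cx3cr1 without mouse NT_992 (adjusted p from 0.051 to 0.145), Stab1, Gata4, and Timd4 without mouse L981_CI (adjusted p from 0.0518 to 0.0731) and Stab1, Gata4, and Cx3cr1 without mouse L984_CI (adjusted p from 0.0548 to 0.0909).

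Lymphocyte and neutrophil genes gave no call. None of 12 T and NK cell genes, 6 B and plasma cell genes, or 5 neutrophil genes passed the edgeR test. T and NK cell markers summed to 6.34 to 53.1 CPM in the livers and 10.2 to 77.2 CPM in the tumors. Cd8a, of cytotoxic T cells, was at 1.39, 1.22, 2.45, and 0.149 CPM in the livers and 13.7, 1.47, 4.99, and 0.747 CPM in the tumors (log2 fold change 1.65 ± 0.57, adjusted p = 0.0825), highest in T-HCC941, and Cd8b1, Cd247, and Cd5 had log2 fold changes of 1.78, 0.80, and 1.22. B cell markers summed to 4.76 to 157 CPM in the livers, where mouse NT_992 was highest, and to 11.8 to 44.3 CPM in the tumors. Cd79a, Mzb1, and Cd22 had log2 fold changes of -1.22, -0.58, and -0.05, none past the test. Neutrophil markers summed to 8.14 to 35.5 CPM in the livers and 8.16 to 26.8 CPM in the tumors (Cxcr2 -1.01, S100a9 -0.43, Retnlg -0.23, and Csf3r 0.07). Dendritic cell genes gave 1 rise among 8, Itgax, a share near the 11.3% higher over all genes tested. Zbtb46, Cd209a, and Ccr7 did not pass (0.79, 1.89, and 1.03). The dendritic cell list summed to 9.02 to 53.2 CPM in the livers and 19.01 to 64.7 CPM in the tumors.

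Stellate cell and fibroblast genes rose in 3 of 15 cases and 1 fell, against 11.3% higher and 9.73% lower over all genes tested. Acta2, smooth muscle actin, was at 0.231, 2.71, 1.35, and 0.941 CPM in the livers and 4.61, 15.5, 6.41, and 1.03 CPM in the tumors (log2 fold change 2.22 ± 0.59, adjusted p = 0.0399), and TCi-HCA984 was level with its liver. Timp1 rose by 1.98 ± 0.51 and Rgs5, of pericytes, by 1.62 ± 0.39, while Ecm1 fell with a log2 fold change of -0.90 ± 0.21. The list summed to 123 to 464 CPM in the livers and 175 to 327 CPM in the tumors, and its part in the matrix result was not tested. Of 9 bile duct genes 3 rose, namely Sox9, Bicc1 (log2 fold change 3.57 ± 0.41, adjusted p = 0.00404), and Anxa13 (log2 fold change 4.41 ± 1.03, adjusted p = 0.0279). Anxa13 was at 0.463, 0.851, 1.35, and 0.941 CPM in the livers and 63.4, 1, 68.7, and 10.9 CPM in the tumors, high in the 2 carcinomas. The bile duct list summed to 77.4 to 171 CPM in the livers and 162 to 1121 CPM in the tumors, and it shares 6 genes with other lists. Of 6 red blood cell genes Alas2, which also serves erythroid heme synthesis, fell (log2 fold change -1.57 ± 0.37, adjusted p = 0.0295). The globins did not pass, with log2 fold changes of 0.17 for Hbb-bs and -0.15 for both Hba-a1 and Hba-a2, which are near-identical copies with equal values. The red cell list summed to 266 to 609 CPM in the livers and 199.7 to 877 CPM in the tumors. Acta2, Timp1, Rgs5, Ecm1, Anxa13, and Alas2 were no longer called without mouse p_941 (adjusted p from 0.052 to 0.116), Acta2, Timp1, Ecm1, and Alas2 without mouse NT_992 (adjusted p from 0.0728 to 0.141), Acta2, Timp1, Rgs5, Ecm1, and Anxa13 without mouse L981_CI (adjusted p from 0.0543 to 0.105) and Rgs5, Anxa13, and Alas2 without mouse L984_CI (adjusted p from 0.0528 to 0.0816).

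The change from liver to tumor was tested for a difference between the 4 mice without and the 2 mice with a Ctnnb1 mutation in the tumor. Of 15182 genes 502 differed (3.31%), 271 in the direction of a higher and 231 of a lower tumor effect without the mutation. The mutated pairs alone gave 1067 calls (7.03%). Of the 502 genes, 226 were called in the tumors without the mutation alone, 163 in the mutated tumors alone, and 94 in both, 73 of these in opposite directions. The test of the difference gave 192 calls without the mouse block, and left-out mice lowered the count to 64 (the mouse of T-HCC662), 103 (that of T-HCC663), 265 (NT_992), 266 (p_941), and 329 (L981_CI), so the class difference rests heavily on the 2 mutated tumors. Ctnnb1 itself was at 199.7, 248, 162, and 254 CPM in the livers and 250.3, 372, 395, and 343 CPM in the tumors without the mutation (log2 fold change 0.67 ± 0.22, adjusted p = 0.0678), higher in each tumor than in its own liver.

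The genes with the smallest p for a higher tumor effect without the mutation were mostly kept in these tumors and lost in the mutated ones. Sfxn1, a mitochondrial serine carrier, was at 73.1, 117, 141, and 239 CPM in the tumors without the mutation, near its livers (84.0, 88.2, 121, and 151 CPM), and at 2.24 and 3.8 CPM in the mutated tumors (difference 5.77 ± 0.35, adjusted p = 0.000712). Aspg, an asparaginase, was at 409.9, 235, 274, and 250.3 CPM against 3.58 and 4.45 CPM in the mutated tumors (difference 7.23 ± 0.48, adjusted p = 0.000818), and Sdsl, a serine dehydratase-like enzyme, at 23.8, 14.7, 11.3, and 15.9 against 0.268 and 0.389 CPM (difference 6.35 ± 0.39, adjusted p = 0.000712). BC089597, an acyltransferase-like gene, differed by 5.81 ± 0.35, adjusted p = 0.000712 and was higher in tumor than liver without the mutation (log2 fold change 0.90 ± 0.20, adjusted p = 0.0221). Itih5 was a different case, since it stayed at the liver level in the mutated tumors (9.12 and 10.3 CPM) and rose in the others (difference 4.51 ± 0.35, adjusted p = 0.00143).

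In the other direction, Rhbg, the ammonium channel of pericentral cells, was at 10.6, 16.2, 11.6, and 7.98 CPM in the livers and 2.6, 2.97, 3.16, and 3.45 CPM in the tumors without the mutation (log2 fold change -1.88 ± 0.27, adjusted p = 0.00743), and at 319.8 and 272 CPM in the mutated tumors (difference -6.30 ± 0.42, adjusted p = 0.000818). Nkd1 differed by -6.00 ± 0.45, adjusted p = 0.00143 and Axin2 by -4.86 ± 0.44, adjusted p = 0.00247. Slc1a5, a glutamine carrier, was at 11.3, 8.59, 13.8, and 7.18 CPM without the mutation, near the livers (log2 fold change 0.21 ± 0.24, adjusted p = 0.558), and at 112 and 184 CPM with it (difference -4.25 ± 0.36, adjusted p = 0.00219). Phospho1 and Abi3, which overlap in transcribed sequence, differed by -4.57 ± 0.40, adjusted p = 0.00219 and -3.72 ± 0.33, adjusted p = 0.00247, and Abi3 fell without the mutation (log2 fold change -1.42 ± 0.17, adjusted p = 0.00464). Rhbg, Nkd1, and Axin2 thus fell without the mutation and rose with it, and Slc1a5 moved in the mutated tumors alone. BC089597 was no longer called without mouse p_941, NT_992, or L981_CI (adjusted p from 0.063 to 0.0914).

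**Figure D4:**
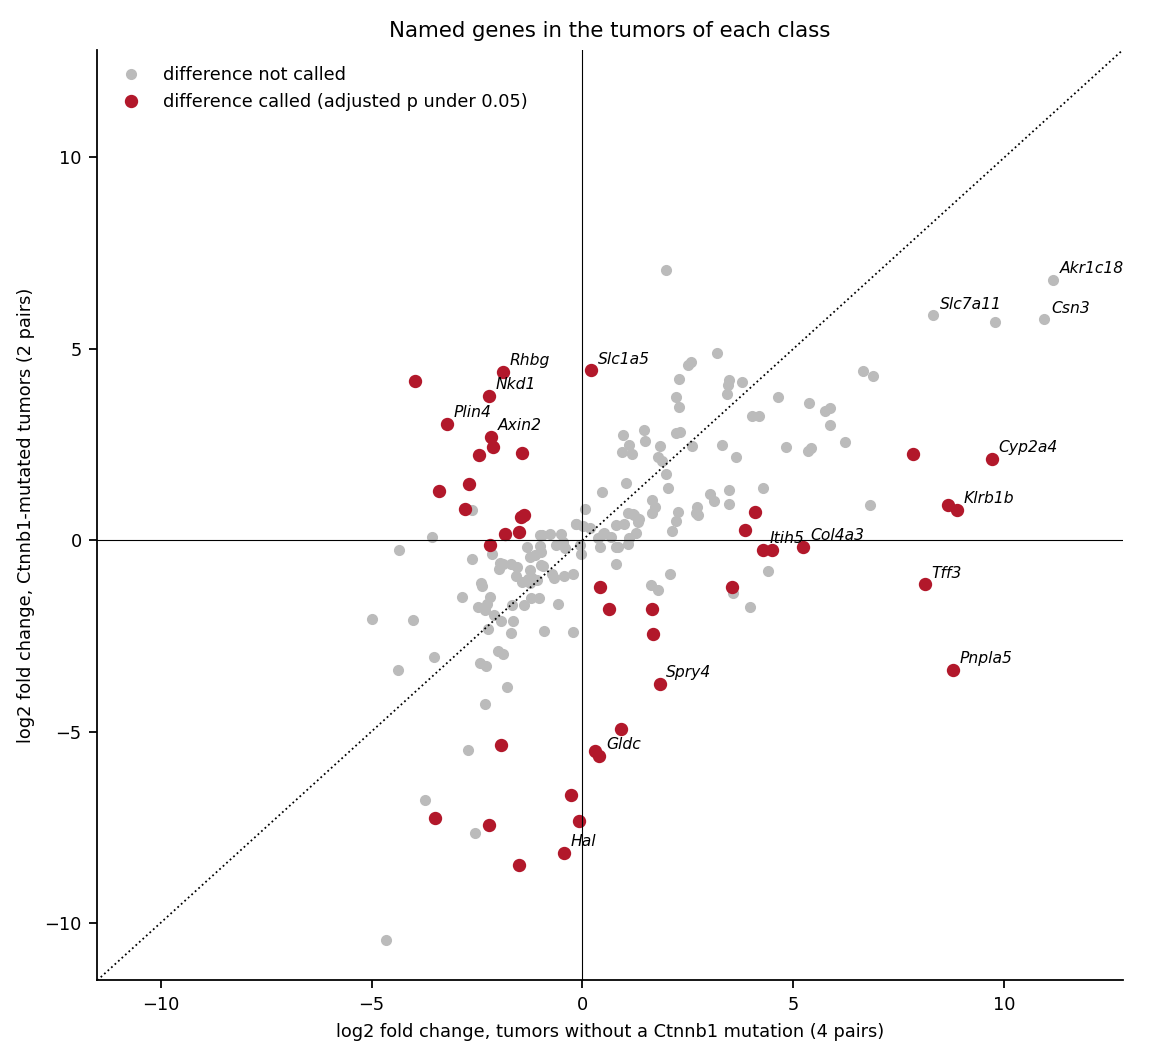
Log2 fold change of tumor over own liver for the named genes, in the 4 pairs without a Ctnnb1 mutation on the horizontal axis and the 2 pairs with one on the vertical axis, with genes whose difference was called in red and the line of equal change dotted. Itih5 and Col4a3 lie to the right at a height near zero, Klrb1b and Cyp2a4 lie far right at heights of 0.79 and 2.13, Hal and Gldc lie low and near zero on the horizontal axis, and Rhbg, Nkd1, and Axin2 lie at upper left. Values of genes with few liver reads, such as Csn3 and Akr1c18, depend on the prior count of the fit.

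No gene of 14885 was called for a difference in tumor effect between the p21+/Tert and the p21+/TertCi mice (0%, smallest edgeR adjusted p 0.546). The 4 pairs hold 2 of each genotype, and 724 genes had an unadjusted p under 0.05. DESeq2 called 87 genes. On simulated counts the edgeR test recovered 12 of 100 planted 4-fold differences and 0 of 100 planted 2-fold differences. The absence of calls therefore does not show that the genotypes are alike. All 2950 genes called over the 4 pairs had the same sign in both genotypes. These genes were called for a shared change over the same 4 mice. That agreement thus largely follows from the call and is no test of genotype. The genes of smallest p, none past the test, were Mup21 (difference of TertCi minus Tert 3.34), Susd4 (4.45), and Mmd2 (3.45) in one direction and Gbp10 (-3.39), Gbp6 (-2.45), and Jun (-2.69) in the other. Gbp6 and Gbp10 are guanylate-binding proteins of the interferon response with near-identical sequence, and Gbp10 was at 5.01, 13.3, 81.7, and 4.36 CPM in the livers and 32.8, 72.7, 36.2, and 3.28 CPM in the tumors. Jun, a subunit of AP-1, was at 8.48, 33.0, 55.0, and 83.8 and 34.8, 101, 28.8, and 47.1 CPM, above liver in the p21+/Tert mice and below it in the p21+/TertCi mice. Each genotype is here 1 carcinoma and 1 adenoma, each with its own mutation, so genotype and single tumor cannot be told apart.

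The median change of all expressed genes on a chromosome was computed in each tumor relative to the median over all genes. In T-HCC941 the medians were 0.39 on chromosome 1, 0.43 on X, and 0.20 on chromosome 5, and -0.51 on chromosome 13, -0.33 on chromosome 8, and -0.29 on chromosome 9. In TCi-HCC981 they were 0.44 on chromosome 1, 0.40 on chromosome 15, 0.35 on chromosome 18, 0.24 on X, and -0.21 on chromosome 8. Chromosome 5 was at -0.16 and chromosome 4 at -0.14 in TCi-HCC981. Both carcinomas thus had chromosome 1 as one of the highest. The study's exome data list gains of chromosomes 5 and X in T-HCC941. For TCi-HCC981 they list gains of chromosomes 5 and 15 and a loss on chromosome 4, and for the adenomas no detectable change. How copy number relates to these medians was not tested. In T-HCA992 the lowest was -0.27 on chromosome 17 and the others lay between -0.15 and 0.11, and in TCi-HCA984 all lay between -0.08 and 0.16. Col4a3 and Col4a4 lie on chromosome 1, and the part of the chromosome in their change was not tested.

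**Figure D5:**
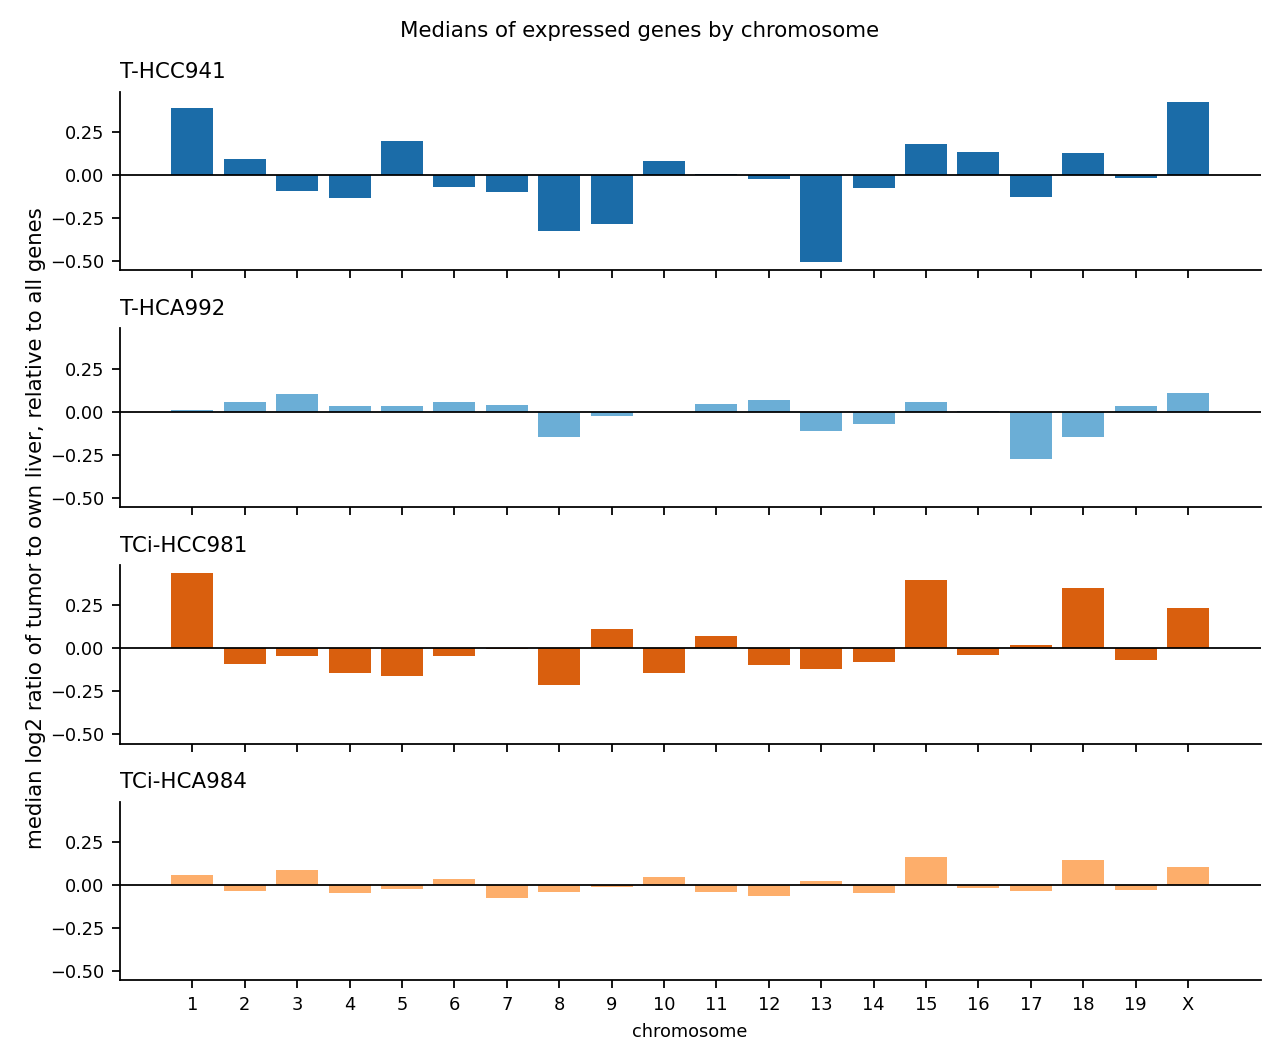
Median log2 ratio of tumor to own liver over the expressed genes of each chromosome, relative to the median of all genes, with 1 panel for each tumor. The carcinomas T-HCC941 and TCi-HCC981 have medians from -0.51 to 0.44 across chromosomes, and the adenomas T-HCA992 and TCi-HCA984 from -0.27 to 0.16.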

How the data were processed

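RNA was measured in tumor and non-tumor liver of 4 mice, 8 libraries of a series of 12. Per the labels and the study's methods, poly(A) RNA was sequenced in paired ends, reads with a quality under 30 were removed, and the authors aligned the rest with Subread to mm10 and counted them with featureCounts (1.6.4). The deposited values are whole-number read counts for 24421 gene symbols. Strand, annotation release, and sequencing run of each library were not given in the sources used here. The kit is not stated to keep strand, so antisense and overlapping genes cannot be told apart.

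Tumors and livers were grouped by label and paired by the animal number in the titles, and the mutation class came from the study's exome data. The liver titled p_961 was taken as that of the mouse of tumor p_662_T by elimination, and it enters every value of the mutated pairs, the difference between mutation classes, and the fit of all 12 libraries. As a check of the pairing, deviations of tumors and livers from their group means correlated at 0.291 to 0.481 over 14004 genes within a mouse and at -0.402 to 0.0826 between mice. No 2 libraries of a tissue were alike within counting error.

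Counts were tested in edgeR 4.0.16 (R 4.3.3) with the quasi-likelihood F test after filterByExpr and TMM scaling, with mouse as a block, and called at a Benjamini-Hochberg adjusted p under 0.05. The 4 pairs alone were fitted for the main comparison, and the 4 pairs with genotype for the difference between genotypes. All 6 pairs were fitted for the difference between mutation classes and for the effect in the mutated pairs. Alternatives were DESeq2 1.42.0, RLE size factors, no filter, all 12 libraries, no block, a separate tumor effect for each genotype, and each mouse left out. The effects of both genotypes came from a single model over the 4 pairs, with a shared spread. The fits were tested on simulated data. CPM used TMM-scaled library sizes, log2 ratios per mouse a pseudocount of 1 CPM, and chromosome medians genes with a mean of at least 1 CPM (alternative 10 CPM).

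Named are Hal, Gldc, and Col4a3, the 12 genes of smallest p in each direction (same direction in 4 mice, mean of at least 1 CPM), up to 5 genes of smallest p in each list (4 for cell markers), all called urea cycle and telomere genes, Ctnnb1, Tert, Cdkn1a, Hnf4a, Egfr, Hras, Nfe2l2, and Trp53, and 6 and 3 genes in each direction for the differences between classes and genotypes. A few genes that this rule names are not reported here. Members and lists were chosen with earlier results of these data known. GENCODE gene names, used for gene positions, matched 23334 symbols directly, and 667 were matched through RefSeq synonyms. Genes sharing 200 bases at 95% identity, found with minimap2 2.31, are named as near-identical.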

Additional observations from a re-analysis of the deposited data

Results flagged for a closer look

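In 18 of 405 groups of 4 libraries, for 214 genes in livers and in tumors where a library reached 1 CPM, 1 library stood apart from the other 3. The gap to the nearest library, as a share of the range of log2(CPM + 1), was above the critical value of Dixon's test. Chance gives about 1 such group in 20, which is about as many as were seen. Among the livers, that of mouse L984_CI was low in Asl (0.888) and Magix (0.947), that of mouse L984_CI was high in Cpt2 (0.894), that of mouse p_941 was low in Cyp4a10 (0.859), that of mouse NT_992 was high in Hsd3b7 (0.894), and that of mouse L981_CI was high in Thbs1 (0.857). Among the tumors, that of mouse L981_CI was high in Clec4f (0.914), that of mouse L984_CI was high in Cpt2 (0.882) and Glul (0.917), that of mouse NT_992 was high in Cx3cr1 (0.83), and that of mouse NT_992 was low in Cyp4f15 (0.835). Also among the tumors, that of mouse p_941 was low in Eci1 (0.865), that of mouse L981_CI was low in Fitm1 (0.848) and Mup14 (0.85), that of mouse L984_CI was low in Gbp6 (0.867), Phlda3 (0.833), and Prom1 (0.85), and that of mouse p_941 was high in Sult5a1 (0.882). Cpt2 was high in both the liver and the tumor of mouse L984_CI.

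The tumor effect differed between mice without and with a Ctnnb1 mutation in 48 of the named genes by the edgeR test of the difference, and the values are tumor effect without minus with the mutation, on the log2 scale. Of the genes with a higher effect without the mutation, those that rose in the tumors without it were Pnpla5 (12.19), Tff3 (9.24), Klrb1b (8.05), 2310034O05Rik (7.71), Cyp2a4 (7.54), Col4a4 (6.37), BC089597 (5.81), 5730559C18Rik (5.58), Spry4 (5.56), Col4a3 (5.38), Col4a5 (4.75), Flt4 (4.74), Itih5 (4.51), Hsd17b13 (4.11), Dusp4 (3.57), Sox9 (3.43), and Itga6 (3.33). The others, which fell less than in the mutated tumors or did not pass the test, were Hal (7.70), Aspg (7.23), Cyp2f2 (6.96), Sdsl (6.35), Gldc (6.02), Sfxn1 (5.77), Cyp2u1 (5.22), Sult5a1 (3.75), Cadm4 (3.41), Serpina1a (2.41), and Tert (1.63). Of the genes with a lower effect without the mutation, those that fell without it and rose with it were Rhbg (-6.30), Plin4 (-6.26), Nkd1 (-6.00), Glul (-5.95), Lgr5 (-4.94), Axin2 (-4.86), Lect2 (-4.68), Phospho1 (-4.57), and Abi3 (-3.72). The remaining ones were Cyp4a10 (-8.14), Oat (-6.52), Cyp4a12b (-4.69), Slc1a5 (-4.25), Fitm1 (-4.17), Rnase4 (-3.63), Angptl4 (-2.09), Ldhd (-2.07), Acaa1a (-2.07), G6pc (-2.01), and Cpox (-1.74). The values of Pnpla5, 2310034O05Rik, Klrb1b, and 5730559C18Rik depend on the prior count of the fit, since some groups held few reads of them. Tert, whose difference of 1.63 had an adjusted p of 0.0495, and Sult5a1, at 0.0498, are nearest to the threshold.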

How the results depend on the processing

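The main comparison gave 2950 calls. It gave 4169 in DESeq2, which held all 2950, 2989 with RLE size factors, 3101 without a filter, and 3353 with all 12 libraries in the fit. It gave 1474 without the replicate block, 1063 in the p21+/Tert pairs alone, and 201 in the p21+/TertCi pairs alone, and 1038 to 2478 with a mouse left out. No gene called in the main test and in an alternative changed direction. The class difference gave 502 calls, 1415 in DESeq2, 517 with RLE size factors, 583 without a filter, 192 without the replicate block, and 64 to 443 with a mouse left out. The genotype difference gave 0 calls, 87 in DESeq2, and 0 to 26 with a mouse left out, 26 of them without mouse L981_CI and 2 without mouse L984_CI. With a mouse left out, fewer libraries leave fewer degrees of freedom, and the cause of the other changes was not tested.

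Of 169 named genes that were called, 169 stayed called in DESeq2, 168 with RLE size factors, 167 without a filter, and 161 with all 12 libraries. The number was 115 without the block, 107 for the p21+/Tert effect, 45 for the p21+/TertCi effect, and 99 with each mouse left out in turn. None changed direction. Of the named genes that were not called, 17 changed direction in some alternative, always without a call. Their log2 fold changes with a mouse left out spanned, by gene, Aspg -0.307 to 0.0734, Cd22 -0.501 to 0.772, Csf3r -0.0254 to 0.222, Egfr -0.892 to 0.145, Hal -0.842 to 0.0156, Hba-a1 -0.378 to 0.233, Hba-a2 -0.378 to 0.233, Hbb-bs -0.117 to 0.632, Hnf4a -0.163 to 0.0732, Hras -0.136 to 0.262, Jun -0.0814 to 0.965, Mzb1 -1.09 to 0.205, and Retnlg -0.697 to 0.200. In DESeq2, the value was 0.00175 for Cd22. With all 12 libraries, the value was -0.000706 for Hras. Without a filter, the value was -0.000366 for Hras. Without the block, the values were -0.0855 for Csf3r, 0.0533 for Hba-a1, and 0.0533 for Hba-a2. For the p21+/Tert effect, the values were 0.428 for Egfr, -0.517 for Hbb-bs, and -0.204 for Slc1a5. For the p21+/TertCi effect, the values were 0.803 for Cd22, 0.323 for Cd79a, -0.0596 for Csf3r, -0.811 for Gbp10, -0.258 for Gbp6, 0.319 for Hal, 0.272 for Hba-a1, 0.272 for Hba-a2, -0.232 for Hras, and -0.858 for Jun. The median of each gene list moved by less than its spread over mice with RLE size factors. With a minimum of 10 CPM, 3 chromosome medians moved by more than the SD of that chromosome over the mice, to -0.114 (chromosome 6 in mouse L981_CI), -0.0387, and -0.0144 (chromosome 14 in mice p_941 and L984_CI). Genes with few reads in liver, such as Akr1c18 and Csn3, are limited by depth, and lymphocyte genes near 1 CPM likewise.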
